A study of Mus musculus with 4 samples.

Results

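Chemokine ligands are small secreted proteins that attract cells carrying a matching receptor. The 10 ligand genes described here, Ccl1, Ccl3, Ccl4, Ccl5, Ccl17, Ccl20, Ccl22, Cxcl3, Cxcl10 and Xcl1, were chosen by name as ligands that T cells can make, with no measured value in the rule. They are 10 of the 50600 genes in the files, and earlier results of these data were known when they were chosen. Their transcripts were counted by RNA sequencing in 4 libraries from mouse T-helper 17 (Th17) cells, a CD4 T-cell class named for interleukin 17. The labels give primary cells of strain C57BL/6NJ with 1 donor label, biological replicates 1 to 4, and neither sex nor age. Library names in the headers include 72 hr and the word sorted, and the sources used here do not say which markers were sorted on or whether cells were pooled. All 4 libraries belong to 1 group with no other cell type or treatment, so the comparisons are between genes within a library and between libraries.

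A chemokine acts through a receptor on the surface of the cell that it draws in, and most receptors answer to several ligands. Th17 cells are known for making Ccl20 and for carrying its receptor Ccr6, so that they can attract further Ccr6-bearing cells. Ccl3 and Ccl4 are made by many activated lymphocytes and macrophages, Cxcl10 is a classical interferon-induced ligand, and Ccl17 and Ccl22 are best known from dendritic cells and macrophages.

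The members belong to 3 structural classes, set by the spacing of the first cysteines of the mature protein. The coding sequence around those cysteines is shown for 4 members because it separates the classes, with 5 codons on each side and the cysteine codons in capitals. It was read from GENCODE mouse release 21 transcripts (mm10, also called GRCm38), and the Ccl20 window joins 2 exons.
Ccl20: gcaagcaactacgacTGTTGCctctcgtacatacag
Ccl4: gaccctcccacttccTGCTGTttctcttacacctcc
Cxcl10: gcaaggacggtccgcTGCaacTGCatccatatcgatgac
Xcl1: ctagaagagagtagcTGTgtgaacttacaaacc
The windows lie at chr1:83116902-83117833 (plus strand) for Ccl20, chr11:83663467-83663502 (plus) for Ccl4, chr5:92348166-92348204 (minus) for Cxcl10 and chr1:164932960-164932992 (minus) for Xcl1. Ccl20 and Ccl4 have adjacent cysteine codons, as do Ccl1, Ccl3, Ccl5, Ccl17 and Ccl22. Cxcl10 has 1 codon between them, and so does Cxcl3. Xcl1 has a single cysteine codon there, and its coding sequence held 2 cysteine codons from that point on, against 4 in Ccl20, Ccl3, Ccl4 and Cxcl10. Among the members with a spaced pair, a glutamate-leucine-arginine triplet directly before the first cysteine, known from ligands that attract neutrophils, was found in Cxcl3 and not in Cxcl10. The longest exact stretch that transcripts of any 2 members shared was 15 bases, between Ccl1 and Ccl4.

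The files held between 9382661 and 34542693 counts of read pairs per library, a 3.68-fold range, with the fewest in replicate 3. The 6 Th17 and 7 T-cell marker genes each reached 1 TPM in all 4 libraries. TPM, a level corrected for exonic length and library size, was computed here from the counts, so that different genes can be set side by side. Marker lists of other cells were lower but not all at 0. The T-helper 1 (Th1) list summed to between 73.9 and 117 TPM, with Il12rb2 at 46.9, Cxcr3 at 25.8 and Tbx21 at 20.3 TPM. The regulatory T-cell list summed to between 12.3 and 15.7 TPM, and the CD8 T-cell list to between 11.3 and 15.4. The T-helper 2 (Th2) list summed to between 4.45 and 6.16 TPM and the gamma-delta list to between 0.444 and 1.65. Foxp3, of the regulatory list, had 1.85 TPM in replicate 3 (21 counts) and at most 0.382 elsewhere. The natural killer list summed to between 11.7 and 19.9 TPM, mostly from Nkg7 (8.82 TPM) and Klrd1 (3.6 TPM), with 2 of 7 genes (Ncr1, Klrb1c) at 0 counts in every library. The macrophage list summed to between 5.32 and 10.7 TPM with none of 7 at 0. A further 4 lists each summed to less than 1 TPM in every library: dendritic cells with 4 of 7 genes at 0 (Clec9a, Cd209a, Siglech, H2-Aa), B cells with 1 of 5 (Ms4a1), mast cells and basophils with 3 of 4 (Mcpt8, Cpa3, Fcer1a) and neutrophils with 3 of 5 (S100a8, S100a9, Mpo). In bulk RNA, fewer cells of a type and less RNA per cell cannot be told apart. Whether separate animals or cultures stand behind the 4 libraries is not said in the labels, and p-values here cover the spread between these samples alone.

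Of the 10 ligands, 3 carried nearly all the RNA. Ccl20, Ccl4 and Ccl3 together made up 98.8% ± 0.285 (SD, n = 4) of the summed TPM of the members, and Ccl20 alone 67.6% ± 3.13. By library, the Ccl20 share was 65.8%, 66.1%, 72.3% and 66.0% in replicates 1 to 4. The members' counts together were 0.0559%, 0.0539%, 0.0588% and 0.0427% of all counts in replicates 1 to 4. Of the 10 members, 5 (Ccl20, Ccl4, Ccl3, Cxcl10 and Cxcl3) reached 1 TPM in every library. That share is close to the 47.6% of the 21764 protein-coding genes that did so.

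**Figure D1:**
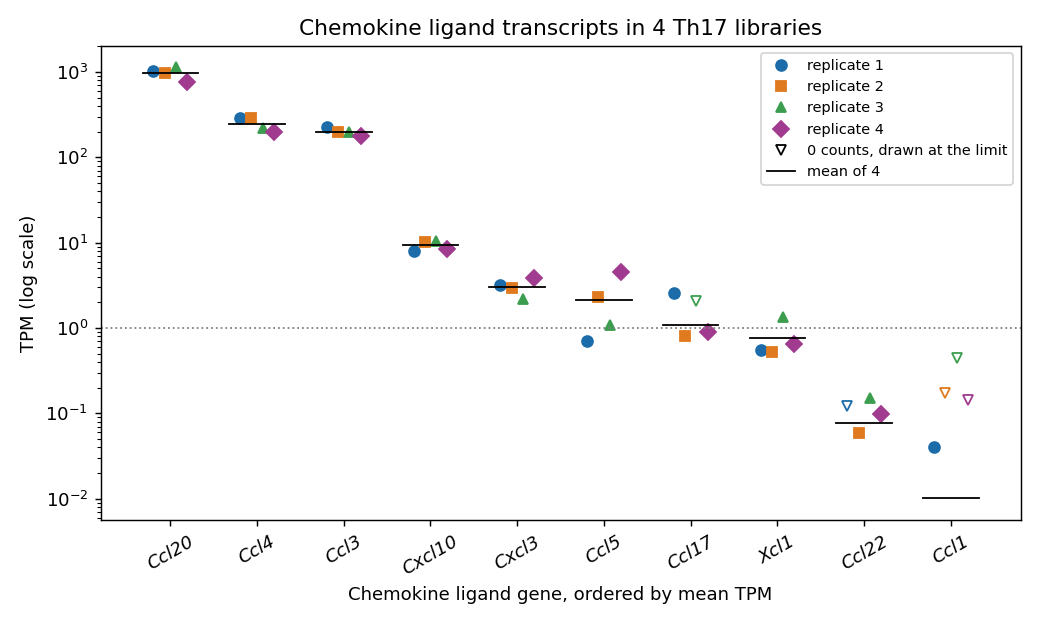
TPM of the 10 ligand genes (log axis) in each of 4 Th17 libraries, 1 symbol per library, with black bars for the mean of 4, a dotted line at 1 TPM and open triangles for libraries with 0 counts, drawn at the level that 3 counts would give. Ccl20 lies above every other member in each library, Ccl4 and Ccl3 lie close together, and Ccl17, Xcl1, Ccl22 and Ccl1 lie near or below 1 TPM.

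Ccl20, the ligand of Ccr6, had 1017, 976, 1130 and 768 TPM in replicates 1 to 4, a mean of 973 ± 151 (SD, n = 4). It was highest in replicate 3, the shallowest library, and lowest in replicate 4. These values rest on 15159, 10047, 4577 and 9562 counts, so counting error is small beside the spread. By mean TPM it ranked 104 among the protein-coding genes. Ccl20 (ENSMUSG00000026166.14) spans chr1:83116766-83119167 on the plus strand in mm10, and its exons cover 1421 bases. Among the 10 cytokine genes set beside the members, only Il17f and Il17a had higher mean TPM. Ccl20 stood at 0.124 ± 0.00922 times Il17a and 0.0832 ± 0.00796 times Il17f. Lif, a cytokine of the interleukin 6 family, came next after Ccl20 with 702, 712, 570 and 801 TPM, and was above Ccl20 in replicate 4 only.

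Ccl4 and Ccl3, also known as macrophage inflammatory proteins, followed as a pair. Ccl4 had 287, 287, 218 and 200 TPM in replicates 1 to 4 (248 ± 45.5, SD, n = 4). Ccl3, a ligand of Ccr1, had 226, 196, 201 and 176 TPM (200 ± 20.6). Ccl4 was the higher of the pair in 4 of 4 libraries, but the ranges overlap and the ratio of Ccl3 to Ccl4 ran from 0.684 to 0.920. Both were lowest in replicate 4, as Ccl20 was. Both were below the inflammatory cytokine gene Tnf (365 ± 24.1 TPM) in every library and above Csf2 (38.9 ± 15.6 TPM), which encodes a growth factor for myeloid cells.

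The genes of this pair lie next to each other on chromosome 11 on opposite strands, Ccl3 (ENSMUSG00000000982.5) at chr11:83647844-83649355 on minus and Ccl4 (ENSMUSG00000018930.3) at chr11:83662584-83664683 on plus, with 13228 bases between them. The same stretch of the chromosome holds other ligand genes with far fewer counts. Summed over the 4 libraries, Ccl3 held 4531 and Ccl4 4924 counts, whereas Ccl5 held 64, Ccl9 25 and Ccl6 0. Elsewhere on the chromosome, Ccl2, Ccl7, Ccl11 and Ccl8, the monocyte and eosinophil attractants beside Ccl1, held 0 counts each, Ccl12 held 1 and Ccl1 itself 1.

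The gap between Ccl20 and Ccl4 was larger than the spread between libraries. Ccl20 was above Ccl4 in 4 of 4 libraries, by 3.54-fold, 3.41-fold, 5.18-fold and 3.84-fold. On the log2(TPM + 1) scale the difference was 1.97 ± 0.27 (SD, n = 4), and an exact sign-flip permutation test over the libraries (two-sided) gave p = 0.125, the smallest that 4 libraries allow. This test cannot go lower with 4 libraries. Ccl4 was taken for it as the next member after Ccl20 by mean TPM in these same libraries, so it gives no independent support for the order. In the order of levels, Ccl3 was 21.5-fold above Cxcl10 and Cxcl10 was 3.05-fold above Cxcl3, again with ranges that do not overlap. With the longest coding transcript as length, Cxcl10 was 1.47-fold above Cxcl3 and their ranges overlap (9.63 to 12.8 against 5.53 to 9.72 TPM), though it was the higher in 4 of 4 libraries. From Cxcl3 downward the ranges of neighbours overlap (Cxcl3 with Ccl5, Ccl5 with Ccl17, Ccl17 with Xcl1, Ccl22 with Ccl1). The exception is Xcl1 above Ccl22, which rests on 10 and 4 counts in all.

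Cxcl10 and Cxcl3, the members of the class with spaced cysteines, were present at low levels in every library. Cxcl10, the interferon-induced ligand of Cxcr3, had 7.96, 10.3, 10.6 and 8.36 TPM in replicates 1 to 4 (9.30 ± 1.34, SD, n = 4), from 188, 168, 68 and 165 counts. It was highest in replicates 2 and 3 and lowest in replicate 1. Cxcl3, an attractant of neutrophils through Cxcr2, had 3.19, 2.92, 2.21 and 3.88 TPM (3.05 ± 0.692), from 117, 74, 22 and 119 counts. It was highest in replicate 4, where Ccl20, Ccl4 and Ccl3 were lowest. Cxcl10 (ENSMUSG00000034855.13) spans chr5:92346638-92348889 on the minus strand, between Cxcl9 with 3 and Cxcl11 with 5 counts, which encode the other ligands of Cxcr3. Cxcl3 (ENSMUSG00000029379.10) spans chr5:90786103-90789600 on the plus strand, and its relatives Cxcl1, Cxcl2 and Cxcl5 had 0, 7 and 29 counts.

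For both genes the files count 100% of the gene's span as exon, so reads from introns are included and the exonic length is 1.66 times that of the longest coding transcript for Cxcl10 and 3.44 times for Cxcl3. With the longest coding transcript as the length of every gene, Cxcl3 stood at 7.63 TPM, 2.50 times the value above, and Cxcl10 at 11.3 TPM. The order of the 10 members by mean was the same with either length. The assay title in the labels says total RNA, whereas the linked library protocol is named for poly(A) RNA, so whether unspliced RNA was selected against is not settled.

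Ccl5, a ligand of Ccr1 and Ccr3 typical of effector CD8 T and natural killer cells, had few counts, and its highest and lowest libraries differed by more than counting error. It had 0.695, 2.30, 1.10 and 4.52 TPM in replicates 1 to 4, from 7, 16, 3 and 38 counts. The exact 95% Poisson intervals, which cover counting error only, ran from 0.279 to 1.43 TPM in replicate 1 and from 3.20 to 6.20 TPM in replicate 4. Ccl5 did not pass the filter on low counts. Without a filter its range was 6.41-fold with an edgeR adjusted p of 0.589, and its mean without replicate 4 was 1.36 TPM, against 2.15 TPM with it. Replicate 4 also had the highest summed TPM of the natural killer list (11.7, 11.7, 12.7 and 19.9 in replicates 1 to 4), of the Th1 list (90.9, 90.7, 73.9 and 117), of the CD8 T-cell list (11.3, 14.7, 12.3 and 15.4) and of the interferon response list (39.4, 62.9, 32.8 and 108). The same held for the general T-cell list (3947, 3832, 3555 and 4172) and the Th2 list (5.07, 4.45, 5.02 and 6.16). All other marker lists were highest in another library. Of the 7 natural killer genes 2 (Ncr1 and Klrb1c) were at 0 counts, and Nkg7 had 7.82, 7.70, 6.53 and 13.2 TPM. The Th1 sum in replicate 4 was mostly Il12rb2 (43.3, 45.3, 27.0 and 72.0 TPM), while the Th1 factor gene Tbx21 (22.0, 21.6, 22.4 and 15.3 TPM) was lowest there. The Th1 cytokine gene Ifng held 2 counts in all, and of the CD8 coreceptor genes Cd8a held 4 while Cd8b1 had 13.4 ± 1.96 TPM. The part of these lists in the level of Ccl5 was not tested.

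Ccl17 and Ccl22, the ligands of Ccr4, were near the limit of detection. Ccl17 (chr8:94810453-94812036, plus strand) had 14, 3, 0 and 4 counts, or 2.60, 0.806, 0 and 0.888 TPM in replicates 1 to 4. The 0 of replicate 3 allows up to 2.05 TPM, the level of 3 counts, which is the limit used for each count of 0. The mean without replicate 1 was 0.565 TPM, against 1.07 TPM with it, and the interval of replicate 1, from 1.42 to 4.36 TPM, overlaps that of replicate 2, from 0.166 to 2.35 TPM. Ccl22 (chr8:94745590-94751699, plus strand) had 0, 1, 1 and 2 counts. The dendritic cell list, whose cells are known to make both ligands, summed to between 0.284 and 0.356 TPM with 4 of 7 genes at 0 counts. The macrophage list summed to between 5.32 and 10.7 TPM in replicates 1 to 4, mostly from Cd68 (6.08 ± 1.66 TPM), while Csf1r had 0.126 ± 0.0628 TPM.

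Xcl1 and Ccl1 were the remaining low members. Xcl1, which attracts dendritic cells that carry Xcr1, had 3, 2, 2 and 3 counts in replicates 1 to 4. The corresponding levels were 0.547, 0.528, 1.34 and 0.654 TPM, and the interval of replicate 3 ran from 0.162 to 4.85 TPM, over the values of the other libraries. Ccl1, the ligand of Ccr8, had 1 count, in replicate 1. Its span in the files, chr11:82176657-82305690 on the minus strand, is far longer than its coding transcripts, and its exonic length of 2369 bases is 3.88 times that of the longest one. Differences between libraries in Xcl1, Ccl22 and Ccl1 were not detectable at this depth.

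**Figure D2:**
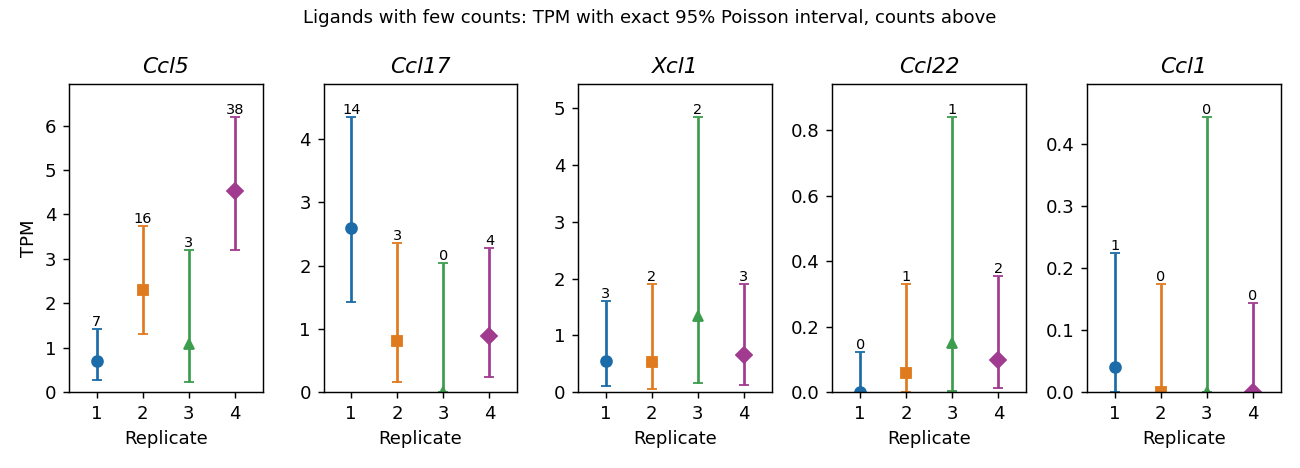
TPM of the 5 ligands with the fewest counts in replicates 1 to 4, each with its exact 95% Poisson interval (counting error only; from 0 to the level of 3 counts where the count is 0) and the number of counts printed above it. For Ccl5 the intervals of replicates 1 and 4 do not overlap, while for Ccl17, Xcl1, Ccl22 and Ccl1 the intervals of the 4 libraries overlap.

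The ligands other than Ccl4 were also set beside receptors that they bind, and the order of ligand and receptor differed between pairs. Of the 9 receptor genes, 7 reached 1 TPM in each library. Ccr6, the receptor of Ccl20, had 174 ± 11.5 TPM (SD, n = 4), and the ratio of Ccl20 to Ccr6 was 5.53, 6.07, 6.78 and 4.20 in replicates 1 to 4. Both were high in every library, with Ccl20 always the higher.

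For Ccl3 the ligand was abundant and its receptor gene Ccr1 low. Ccr1 had 1.68, 2.63, 2.23 and 3.38 TPM in replicates 1 to 4, below Ccl3 in each library. Ccr3, a receptor of Ccl5, had 3.16 ± 1.37 TPM.
For Ccl17, Ccl22 and Ccl1 the reverse held. Ccr4, the receptor of Ccl17 and Ccl22, had 162, 152, 170 and 171 TPM, against 1.07 ± 1.09 TPM for Ccl17 and 0.0771 ± 0.0636 TPM for Ccl22. Ccr8, the receptor of Ccl1, had 69.0, 55.7, 76.4 and 46.8 TPM, while Ccl1 had 1 count. Cxcr3 (25.8 ± 2.58 TPM) was above its ligand Cxcl10 in each library.

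The receptors of Cxcl3 and Xcl1 were near 0: Cxcr2 had 7 and Xcr1 4 counts over all libraries. Of the atypical receptors, which bind chemokines without the usual signalling, Ackr2, Ackr3 and Ackr4 had 0 counts, Ackr1 had 1, and Ccrl2 had 1.45 ± 0.860 TPM. Among 28 other chemokine ligand genes, 15 had 0 counts, and 2 had a mean of at least 1 TPM: Ccl25 (1.46 ± 0.256), which attracts gut-homing T cells, and Ccl27a (1.07 ± 0.224), a skin chemokine. Their 28 levels summed to between 3.69 and 4.75 TPM per library, against 1163 to 1564 TPM for the 10 members.

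**Figure D3:**
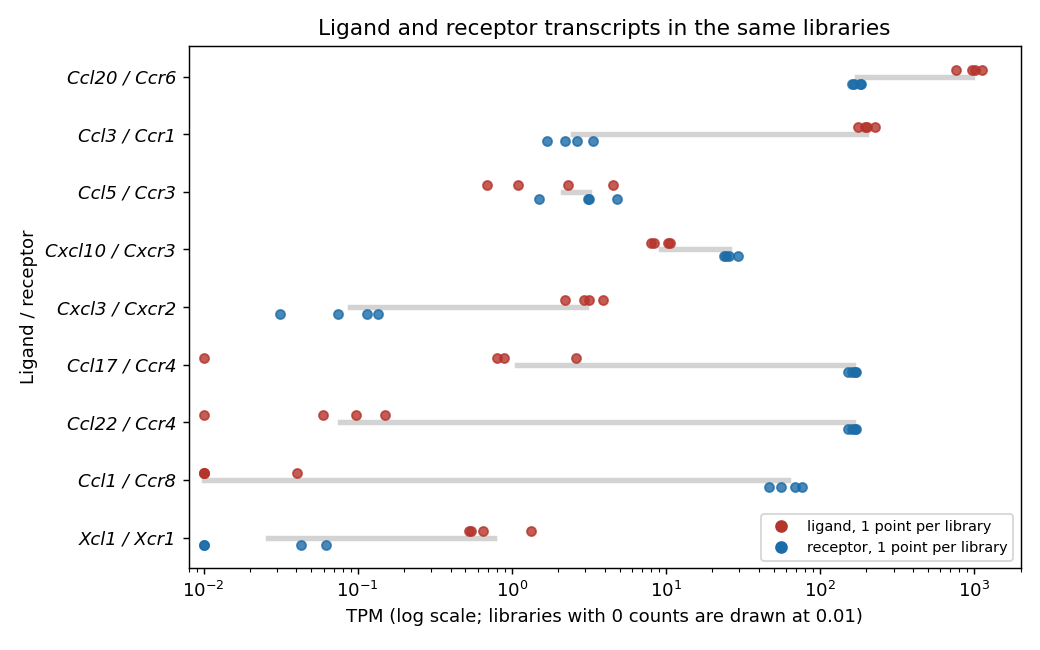
TPM (log axis) of 9 of the ligands (red), each drawn above 1 of its receptors (blue), 1 point per library, with a grey line between the means and libraries with 0 counts drawn at 0.01. Ccl20 and Ccr6 are both above 100 TPM, Ccl3 lies far to the right of Ccr1, and Ccl17, Ccl22 and Ccl1 lie far to the left of Ccr4 and Ccr8.

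The spread between libraries was then tested over all genes. With edgeR, each gene's quasi-dispersion was set against the trend for genes of its abundance. 5 of the 10 members passed the filter on low counts, and 0 of the 5 were called variable at a Benjamini-Hochberg adjusted p of 0.05, where 0.00823% of the 12156 genes tested were (1 gene). At an unadjusted p of 0.05, 2 of the 5 members (Ccl20 and Ccl4) passed, where 4.9% of all genes tested did. DESeq2's dispersion outliers held 0 of the 5 members and 0.847% of the same genes (103).

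Ccl20 ran from 330 CPM (TMM-normalised counts scaled to library size) in replicate 4 to 496 CPM in replicate 3, with 439 and 424 CPM in replicates 1 and 2. That is a 1.5-fold range (edgeR adjusted p = 0.875). Ccl4 had 57.5, 57.8, 44.4 and 40.0 CPM, a 1.45-fold range (edgeR adjusted p = 0.875). Both were lowest in replicate 4, but in replicate 3 Ccl20 was at its highest while Ccl4 was well below its level in replicates 1 and 2.
The other 3 members had adjusted p of 0.991 in the same edgeR test. Ccl3 varied 1.29-fold, Cxcl10 1.35-fold and Cxcl3 1.73-fold, the widest of the 5 and the one with the fewest counts. The median coefficient of variation of the 5 was 16.3%, against 7.91% over all genes tested. Their median range was 1.45-fold, against 1.19-fold. Unlike the edgeR test, neither comparison was matched for abundance. The median coefficient of variation was 20.1% for the receptor genes tested and 6.38% for the regulator genes. Without replicate 4, 1 of the 5 members (Ccl4) passed the unadjusted p of 0.05, where 5.17% of 12145 genes did.

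Genes of factors known to control chemokine transcription were expressed throughout. All 12 regulator genes reached 1 TPM in each library. By edgeR's adjusted p 0 of 12 were called variable, where 0.00823% of all genes tested were. At an unadjusted p of 0.05, 0 of 12 passed, where 4.9% of all genes tested did. Among factors tied to the Th17 programme, Rora had 40.2 ± 4.93, Stat3 210 ± 13.5, Irf4 698 ± 10.8 and Batf 389 ± 24 TPM (SD, n = 4). The nuclear factor kappa B genes Rela, Nfkb1 and Rel had 156 ± 6.64, 139 ± 8.94 and 48.3 ± 2.45 TPM. The interferon-pathway gene Irf1 had 12.2 ± 1.62 TPM, Stat6, which acts after interleukin 4, had 190 ± 8.88, and the Th1 factor Tbx21 had 20.3 ± 3.38 TPM. Against the same shares of all genes, 0 of the 7 receptor genes tested were called, and Ccr8 alone had an unadjusted p under 0.05 (edgeR adjusted p = 0.951).

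By measured level, Cxcl10 and the interferon response genes tested were highest in different libraries. The 6 of 10 interferon response genes that were tested varied between 1.84-fold and 9.14-fold. Of these, 6 of 6 had an unadjusted edgeR p under 0.05, where 4.9% of all genes tested did, though 0 had an adjusted p under 0.05 (lowest 0.289). The antiviral gene Oas3 had 14.4, 23.1, 7.04 and 48.7 CPM in replicates 1 to 4, and the ubiquitin-like gene Isg15 had 1.53, 4.39, 1.84 and 7.32 CPM. Both were highest in replicate 4, where Cxcl10 (5.44, 7.09, 7.37 and 5.70 CPM) was near its lowest. Oas3 was lowest in replicate 3, where Cxcl10 was highest. The Poisson intervals of Cxcl10 overlap between all 4 libraries (8.23 to 13.4 TPM in replicate 3, 7.13 to 9.74 in replicate 4), so its order is uncertain. No test of the difference from the interferon response genes was made.

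**Figure D4:**
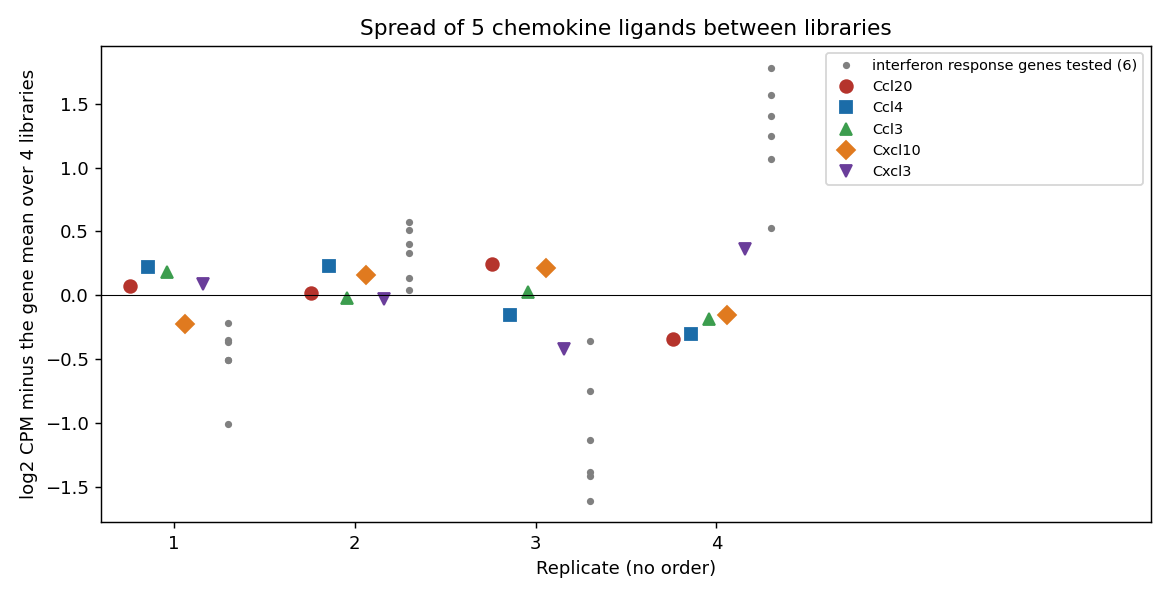
Deviation of log2 CPM from the gene's own mean over 4 libraries, by replicate, for the 5 ligands that passed the filter (coloured symbols) and the 6 interferon response genes tested (grey dots). The grey dots lie above 0 in replicates 2 and 4 and below it in replicates 1 and 3, while the ligands show no such common pattern.

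By a measure of likeness over 4 libraries, the protein-coding genes whose pattern lay closest to that of Ccl20 were Armc6, Shmt1 and Polr1b. The root mean square difference of centred log2 CPM was 0.0021, 0.012 and 0.013, among 11068 genes compared. With 4 libraries such closeness is common, as 504 genes lay within 0.1 of Ccl20. For Cxcl3, the widest in range of the 5 members that passed the filter, the closest included Ripor2 at 0.024 and Tmem8b at 0.026, and 182 genes lay within 0.1.

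The sequence before the start site is shown for 2 members. Ccl20 was the most abundant. Cxcl10 was by measured level highest in another library than the interferon response genes tested, although its intervals overlap between libraries. Each line gives the 250 bases before the RefSeq start, 5′ to 3′ on the gene's strand (GRCm38.p6), with capitals for matches to the motifs searched.
Ccl20: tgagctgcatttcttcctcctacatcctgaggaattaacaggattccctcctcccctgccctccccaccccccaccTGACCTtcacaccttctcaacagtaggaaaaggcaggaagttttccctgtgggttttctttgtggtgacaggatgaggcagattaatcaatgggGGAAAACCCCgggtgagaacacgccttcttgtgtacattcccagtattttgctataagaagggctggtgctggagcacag
Cxcl10: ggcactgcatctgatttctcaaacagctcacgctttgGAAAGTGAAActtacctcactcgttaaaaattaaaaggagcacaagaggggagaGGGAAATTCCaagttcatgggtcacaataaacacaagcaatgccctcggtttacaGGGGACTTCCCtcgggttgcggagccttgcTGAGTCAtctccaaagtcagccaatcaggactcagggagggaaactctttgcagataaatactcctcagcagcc
These are chr1:83116516-83116765 on the plus strand for Ccl20 and chr5:92348890-92349139 on the minus strand for Cxcl10. The motifs, searched on both strands in 300 bases (250 before and 50 after the start) of 8 members with an entry, were the kappa B consensus, AGGTCA (a nuclear receptor site), TTCNNNGAA (STAT type), TGANTCA (AP-1 type) and an interferon element of GAAA, any 2 bases, GAAA.

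In Ccl20, a kappa B match lay at −80 to −71 and AGGTCA at −174 to −169, both on the opposite strand. Cxcl10 held kappa B matches at −159 to −150 and at −104 to −94, where 2 overlap by all but 1 base, TGANTCA at −74 to −68 and the interferon element at −213 to −204. In Cxcl3, overlapping kappa B matches lay at −73 to −63, and in Ccl1 at −196 to −186. AGGTCA was found in Ccl3, Ccl17 and Ccl22, and TTCNNNGAA in Ccl17. Ccl4 and Ccl5 had no entry and were not searched. Among 32851 promoters of the same length, the kappa B consensus was found in 8.46%, TTCNNNGAA in 8.30%, TGANTCA in 7.81%, AGGTCA in 16.3% and the interferon element in 3.44%. A match describes the letters only, and no binding was measured.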

How the data were processed

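The authors' deposited files hold raw counts of read pairs per gene. Per the file headers, they were made by featureCounts 1.4.6-p4 over exons in GENCODE mouse release 13 (reverse-stranded, both mates aligned, multi-mapping and multi-overlapping reads not counted). The build is mm10 per the labels. The version of the aligner: not given in the sources used here.

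Symbols came from GENCODE mouse release 21 (50376 of 50600 identifiers). TPM were computed from counts and exonic lengths with no fragment-length correction. No 2 libraries agreed within sampling noise (chi-square of 3.32 to 18.5 per gene), so all 4 were kept. Pairs with replicate 4 lay furthest apart (13.7 to 18.5), against 3.32 to 7.28 among replicates 1 to 3. Intervals are exact Poisson (95%).

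Spread between libraries used edgeR 4.0.16 (filterByExpr, TMM, intercept only): quasi-dispersion over its trend against the F distribution (upper tail), with Benjamini-Hochberg adjustment over 12156 genes. On simulated counts that follow the trend, 0 of 11989 genes were called with none changed, and 62.5% of 2-fold (11980 genes) and 90.5% of 4-fold changes (11988 genes) in 1 library were recovered. Real genes scatter around the trend, so these rates are not theirs. Alternatives were other filters, DESeq2 1.42.0, other lengths and totals, other thresholds and leaving out each replicate.

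Members and gene lists were chosen with earlier results of these data known. The text names all members, receptors, atypical receptors and regulators (a few genes are not reported here), other ligands with a mean of at least 1 TPM, selected cytokines, high and absent markers, and the 3 genes most like Ccl20 and Cxcl3. Neighbouring ligand genes, Cxcl1, Cxcl2, Cxcl5, Cd8a, Csf1r and Ifng were named after their values were seen. Promoters are from RefSeq (GRCm38.p6). Protein sequences were not used here.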

Additional observations from a re-analysis of the deposited data

Results flagged for a closer look

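In 5 of the 35 genes looked at (members, receptors, atypical receptors and regulators with a count, Ccl25 and Ccl27a), 1 library stood apart, with a gap to the nearest other library larger, relative to the range of the 4, than Dixon's 95% critical value. Chance flags about 1 in 20 groups of measured values, a rate that does not apply to Ccl1 and Ackr1, whose single count sets them apart by construction. Ccl1 had 0.0402 TPM in replicate 1 and 0 counts in the others, which is 1 count. Xcl1 had 1.34 TPM in replicate 3, from 2 counts. It held 2 or 3 counts in each library, replicate 3 was the shallowest, and the chance rate does not apply to Xcl1 either. Ackr1 had 0.0812 TPM in replicate 4, also 1 count. Nfkb1, a subunit gene of nuclear factor kappa B, had 152 TPM in replicate 4, against 133 to 136 in the others. Tbx21, the Th1 transcription factor gene, had 15.3 TPM in replicate 4, against 21.6 to 22.4 in the others. Replicate 4 is the library in which Ccl20, Ccl4 and Ccl3 were lowest. It is also the library furthest from each of the others over the genes compared (chi-square of 13.7 to 18.5 per gene).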

How the results depend on the processing

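No member was called variable under any setting of the edgeR test or among the dispersion outliers of DESeq2, and the lowest adjusted p of a member was 0.171 (Ccl20 without a filter on low counts). The number of genes called over the whole table depended on the processing: 1 in the test reported, 126 with no filter, 5 with a mean count of at least 50, 103 as DESeq2 dispersion outliers, and 1 to 20 when each replicate was left out, with 20 without replicate 4. Ccl20's share of the members was 79.6% on counts, since its exons are longer than those of Ccl3 and Ccl4. Its difference from Ccl4 was 1.84 to 2.04 on the log2 scale with each replicate left out. Subtracting a fixed length, not measured in these libraries, from every exonic length gave Ccl20 503, Ccl4 158, Ccl3 120, Cxcl10 4.53 and Cxcl3 1.44 TPM. Genes too short for this were set to a length of 1 base. Short genes then weigh more in the total, which lowered every member, also Cxcl3 with its long exonic length (0.471 times its value). The longest coding transcript as length, chosen after seeing the data, gave Ccl20 709, Ccl4 180 and Ccl3 145 TPM. Over all results and alternatives, 135 values kept within their limits, 15 moved and 0 changed direction. Many of the 135 could not have done otherwise, so the tally is no measure of robustness. Levels and shares were judged against their SD, and leaving out 1 of 4 libraries cannot move a mean that far. The sign-flip p could not pass its threshold, and the spread on TPM was not judged. Depth limits the low members: differences in Ccl17, Xcl1, Ccl22 and Ccl1 rest on at most 14 counts in a library. No paired analysis was possible because all 4 libraries belong to 1 group.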
